A study of Mus musculus with 15 samples.

Results

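Whole-tissue RNA of the ventral dentate gyrus (vDG) was compared between mice lacking functional serotonin 4 receptors (5-HT4R) in genetically targeted hippocampal cells (cKO) and their controls (WT). The comparison used the 3 WT and 2 cKO vDG input libraries, 5 of the 15 libraries of the series, chosen by their titles. An input is RNA of the homogenate after clearing by centrifugation and before immunoprecipitation (IP). It was not selected for a cell type, and RNA removed by the clearing is not in it. All mice carried the KI198Cre transgene, a Cre driven by a Drd3 bacterial artificial chromosome, and Rosa26fsTRAP, which after recombination expresses the EGFP-tagged ribosomal protein L10a. The cKO mice carried in addition the Htr4Floxed allele, in which exon 5 of Htr4 is removed by Cre, and the WT mice did not. Mice were on a C57BL/6J background and 8 to 12 weeks old. KI198Cre acts in mature granule cells and hilar mossy cells and in some CA cells, not in glia, so most cell types in the input keep an intact Htr4. Each input library was a pool of 2 mice per the labels. All genes in the count files were members: of 32657 genes, 21994 had at least 1 count in these 5 libraries and 15786 passed the filter on low counts and were tested.

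The dentate gyrus is the entry station of the hippocampal circuit, where granule cells relay cortical input to CA3 and mossy cells of the hilus feed back on them. Its ventral pole is linked to mood and anxiety. The receptor 5-HT4R couples to the stimulatory G protein Gs, which activates adenylyl cyclase, raises cAMP and, through protein kinase A, can act on the transcription factor CREB. Astrocytes in the same tissue clear glutamate and potassium, supply lipids and secrete matrix proteins, and they are not among the cells with Cre activity.

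The 5 libraries held between 24600051 and 28098245 counts on genes, and their Spearman correlation over genes lay between 0.971 and 0.989. The labels name whole cortex as the source of the inputs while titles, characteristics and methods name vDG. Trhr, a marker of the vDG, stood at 15.7 to 32.7 CPM (counts per 1000000 counts on genes, here by library size alone) in the 5 vDG inputs and at 0.120 to 0.731 CPM in the 5 inputs of the dorsal dentate gyrus (dDG). Lct, a marker of the dDG, stood at 31.5 to 52.0 CPM against 130.0 to 181.0 CPM. Between genotypes of the vDG, Trhr stood at a log2 fold change of -0.50 (FDR 0.179, with -0.84 without cKO replicate 1 and -0.22 without cKO replicate 2), Lct at 0.09 (FDR 0.851, from -0.30 to 0.40 when a library was left out) and Tyro3, a marker of CA fields, at -0.48 (FDR 0.297), while Dsp, a marker of the dentate gyrus, was called lower at -0.94 (FDR 0.0156), though not by DESeq2. The part of the dissection in the results was not tested. The library of cKO replicate 1 stood apart in its sex-linked RNA. It held 0 counts on the Y-linked genes Ddx3y, Kdm5d, Uty and Eif2s3y, where the WT inputs held 2116, 1479 and 1580 summed counts and cKO replicate 2 held 1652. Xist, the RNA of the inactive X chromosome, was at 12.4, 9.75 and 6.79 CPM in WT and at 31.2 and 8.45 CPM in cKO. The methods state pools of 1 male and 1 female mouse, and this library does not show male RNA. Results are therefore also given without it. With 2 cKO libraries, each such fit rests on 1 cKO library that is assumed to vary like the WT libraries, and p-values measure only the spread between these pools.

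Htr4 itself, which the allele was built to inactivate, was higher in cKO. It was counted at 15.5, 19.6 and 14.5 CPM in WT and at 30.7 and 29.1 CPM in cKO. Both cKO values lay above all WT values, with a log2 fold change of 0.86 (SE 0.16) and a false discovery rate (FDR) of 0.00644. Counts cover the whole gene and do not separate exon 5, so this level does not check the deletion. Htr4 was the only gene called among the 11 tested genes for 5-HT receptors, whose median log2 fold change was -0.10. Htr1b, Htr1d and Htr3b were too low to be tested. Without cKO replicate 1 the change of Htr4 was 0.82 (FDR 0.16) and without cKO replicate 2 it was 0.89 (FDR 0.0665).

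At an FDR of 0.05, 368 genes were lower in cKO, which is 2.33% of the genes tested, and 17 were higher, which is 0.108%, together 2.44%. Lower genes thus made up 95.6% of the 385 calls, while the median log2 fold change of all genes tested was 0.01 and 48.6% of them had a negative value. The changes were mostly moderate. The median log2 fold change was -0.64 for the lower genes, a loss of 35.9%, and 19 of the 368 fell by 1 or more on the log2 scale. For the 17 higher genes the median was 0.75. In all 368 lower genes both cKO values lay below every WT value, while groups did not overlap in that direction for 18.1% of all genes tested and in the other for 14.6%. Of the 371 called genes with an annotation, 370 were protein coding. A gene that was not called may still differ, since 2 cKO libraries allow few calls of small changes.

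**Figure D1:**
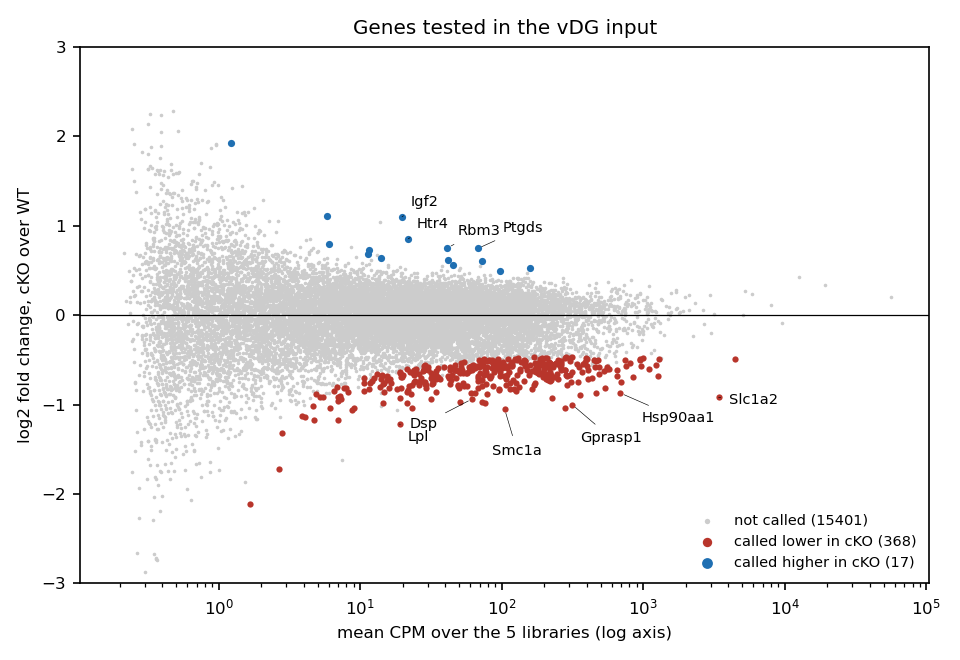
Each point is 1 of the tested genes, with its mean CPM over the 5 vDG input libraries on a log axis and its log2 fold change of cKO against WT on the vertical axis. Called genes are coloured, 368 of them lie below 0 and 17 above, and 9 genes beyond 3 in size on the log2 axis are not drawn.

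The direction of the lower genes was kept in both cKO libraries, and the calls were not. Without cKO replicate 1 all 368 genes kept a negative log2 fold change with a median of -0.62, and 359 had an unadjusted p under 0.05, but 4 passed the FDR. Without cKO replicate 2 all 368 were again negative with a median of -0.66, 364 had an unadjusted p under 0.05 and 38 passed the FDR. Since the 368 were chosen with both libraries in the fit, these signs describe them and are no separate test. Of the 355 lower genes with a known chromosome, 26 (7.32%) were on the X chromosome, against 3.60% of all tested genes with one. The median log2 fold change of these 26 was -0.66 with both cKO libraries, -0.62 without cKO replicate 1, where 0 of them passed the FDR, and -0.71 without cKO replicate 2, where 7 did. The part of the sex-linked difference of cKO replicate 1 in these calls was not tested.

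Among called genes of at least 5 CPM whose groups did not overlap, the 12 with the largest loss were Lpl, Dnah5, Cyp2j9, Smc1a, Cdh20, Kcnj16, Pcdhga5, Dync1h1, Gprasp1, Lrp4, Ecm2 and Pfkp, with log2 fold changes from -1.22 to -0.98. Lpl, the lipoprotein lipase that frees fatty acids from triglycerides, was at 21.6, 35.2 and 17.0 CPM in WT and at 10.0 and 11.1 CPM in cKO (log2 fold change -1.22, SE 0.23, FDR 0.00554). The cKO values were close to each other and the WT values spread over more than the gap between the groups. Smc1a, an X-linked subunit of the cohesin ring that holds chromatin loops and sister chromatids, was at 147, 143 and 107 CPM in WT and at 58.1 and 69.6 CPM in cKO (log2 fold change -1.05, SE 0.15, FDR 0.00114). Its groups were clearly apart, and the change was -0.92 without cKO replicate 1 and -1.19 without cKO replicate 2. The gene lies on chromosome X at 152016428-152062694 of mm10. Gprasp1, also X-linked, encodes a protein that binds the tails of G protein-coupled receptors and directs them to lysosomes. It had the lowest FDR of all genes tested (0.000949), at 373, 426 and 382 CPM in WT and 184 and 209 CPM in cKO (log2 fold change -1.0, SE 0.13). Both cKO libraries thus held about the same low level.

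Dync1h1, the heavy chain of cytoplasmic dynein that carries cargo toward the cell body, was at 266, 544 and 254 CPM in WT and at 177 and 169 CPM in cKO (log2 fold change -1.03, FDR 0.00984). WT replicate 2 was far above the others, and the remaining WT values still lay above both cKO values. Without WT replicate 2 the Dync1h1 log2 fold change was -0.59 (FDR 0.0101), and DESeq2 did not call the gene. Kcnj16 encodes the inward rectifier Kir5.1, a partner of Kir4.1 in glial potassium uptake, and it fell from 28.2, 34.9 and 24.8 CPM to 14.3 and 14.2 CPM (log2 fold change -1.04, FDR 0.00331). Pfkp, a phosphofructokinase of glycolysis, was at 109, 103 and 74.4 CPM in WT and at 42.3 and 54.3 CPM in cKO (log2 fold change -0.98, FDR 0.00331). Lrp4, a receptor that binds agrin, was at 15.7, 20.9 and 17.5 CPM against 7.89 and 10.3 CPM (log2 fold change -0.99, FDR 0.007). The others were Dnah5, a dynein of motile cilia (-1.17), Cyp2j9, a cytochrome P450 (-1.06), the type II cadherin Cdh20 (-1.04), the matrix gene Ecm2 (-0.98) and the protocadherin Pcdhga5 (-1.04). Pcdhga5 shares 45.4% of its exonic bases with other genes of its cluster, so its count is uncertain.

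**Figure D2:**
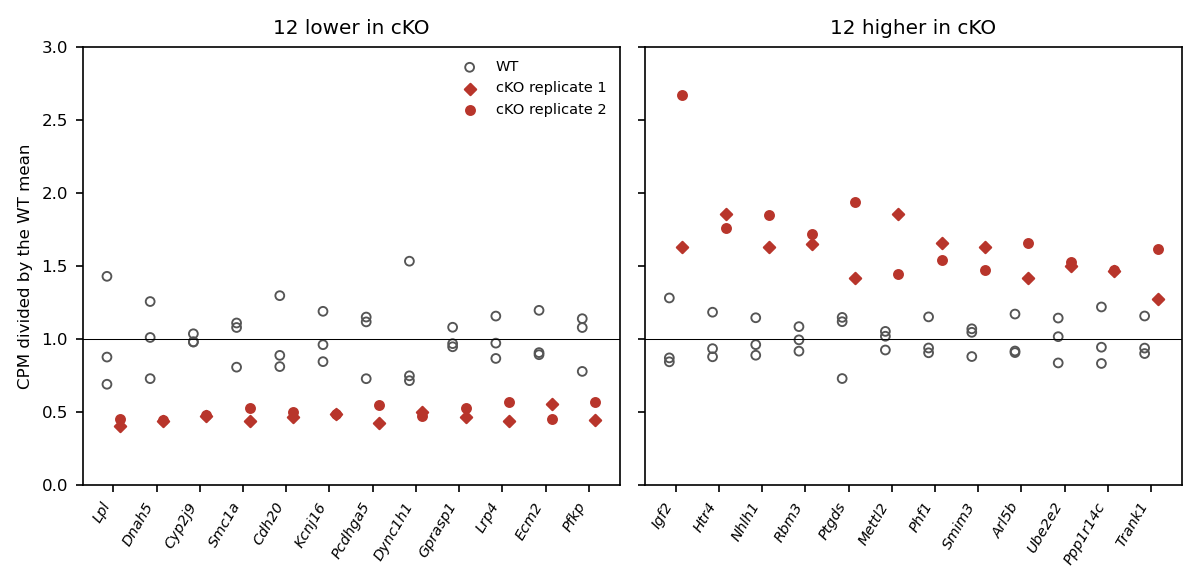
CPM of each library divided by the WT mean of the gene, on a linear axis, for the 12 genes with the largest loss and the 12 with the largest gain in cKO. Points are single libraries of WT (3) and cKO (2), and in every gene shown both cKO points lie on the same side of all WT points.

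By abundance the leading lower genes were Slc1a2, Hsp90ab1, Atp1b1, Map1b and Nsf. Slc1a2 encodes GLT-1, the main glutamate transporter of astrocytes, and lies on chromosome 2 at 102658659-102790784 of mm10. It was at 4083, 4539 and 3987 CPM in WT and at 2344 and 2104 CPM in cKO, 0.529 times the WT level (log2 fold change -0.92, SE 0.13, FDR 0.00114). Its cKO values were well below all WT values, and it passed the FDR under all 16 alternatives, including without cKO replicate 1 (-1.0, FDR 0.00761) and without cKO replicate 2 (-0.84, FDR 0.0117). Map1b, a microtubule-associated protein of axons, was at 4539, 5764 and 4761 CPM against 3388 and 3779 CPM (-0.49, FDR 0.0447) and passed in 5 of 16 alternatives. Hsp90ab1, the constitutive cytosolic Hsp90, fell by 0.68 on the log2 scale (FDR 0.007). Nsf, the ATPase that takes SNARE complexes apart after vesicle fusion, changed by -0.49 (FDR 0.0441).

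Markers of astrocytes were the cell type list with the largest share of lower genes. Of 23 tested astrocyte markers 9 were called lower (39.1%, against 2.33% of all genes) and all 23 had a negative log2 fold change, with a median of -0.59. The 9 were Slc1a2, Mfge8, Clu, Slc1a3, Ttyh1, Gja1, Mlc1, Aqp4 and Gjb6, which span glutamate uptake, gap junctions, water transport and secreted proteins. The change of Gjb6 (-0.65, FDR 0.0476) was -0.38 without cKO replicate 1 and -0.97 without cKO replicate 2. Summed over the list, the level was 6413, 7037 and 6423 CPM in WT and 4169 and 3886 CPM in cKO, with most of each sum from Slc1a2. The median of the list was -0.51 without cKO replicate 1 and -0.51 without cKO replicate 2, and the median per library relative to the WT mean was -0.51 in cKO replicate 1 and -0.48 in cKO replicate 2, against -0.06, 0.03 and 0.01 in the WT libraries. In bulk RNA, fewer cells of a type and less RNA per cell cannot be told apart.

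Slc1a3, the second glutamate transporter of astrocytes (GLAST), was at 206, 274 and 250 CPM in WT and at 162 and 134 CPM in cKO (log2 fold change -0.72, SE 0.14, FDR 0.00731). Mfge8, a secreted glycoprotein that marks cells for phagocytosis, was at 36.0, 38.3 and 42.2 CPM against 22.1 and 18.4 CPM (-0.94, FDR 0.00331). Clu, the secreted chaperone clusterin, was at 148, 176 and 192 CPM against 115 and 90.5 CPM (-0.74, FDR 0.00702). In each of these genes the groups did not overlap, and cKO replicate 2 was the lower of the cKO libraries. Kcnj10, which encodes the glial potassium channel Kir4.1, fell with its partner Kcnj16, from 60.4, 69.6 and 58.1 CPM to 40.4 and 39.7 CPM (-0.65, FDR 0.0124). Apoe, the main lipid carrier made by astrocytes, fell from 145, 151 and 185 CPM to 99.7 and 83.6 CPM (-0.81, FDR 0.00409). The GABA transporter Slc6a11 changed by -0.64 (FDR 0.0317). The astrocyte marker Fgfr3 missed the threshold at -0.61 (FDR 0.0612).

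Other cell type lists held at most 1 lower gene. Of the 37 cell type and functional lists described whose median lay within 0.2 of 0, the median of 35 moved by over 1.5 times or changed sign when 1 of the 5 libraries was left out, so these medians are given with no direction. Of the 23 lists beyond 0.2, 8 moved by over 1.5 times and 0 changed sign. For lists without a call by edgeR, the genes at an unadjusted p under 0.05 and those called by DESeq2 are counted as well, against 2338 and 626 of all genes. Of the 18 granule cell markers 1 was called, Dsp, which encodes the junction protein desmoplakin, at 90.2, 91.8 and 47.0 CPM in WT and 33.0 and 46.7 CPM in cKO (-0.94, FDR 0.0156). WT replicate 3 was as low as cKO replicate 2, and the median of the list was 0.02, which was -0.13 without cKO replicate 2. Of the 18 granule cell markers 9 had a negative and 9 a positive value, and 7 were at an unadjusted p under 0.05 in edgeR. Mossy cell markers (9 tested, 0 called, 2 at an unadjusted p under 0.05, 1 by DESeq2) had a median of -0.16, and among them Calcrl, a receptor subunit for CGRP, stood at -0.69 (FDR 0.0754). CA pyramidal cell markers (15 tested) had a median of -0.03 with Dkk3 called lower (-0.69, FDR 0.00506). Interneuron markers (17 tested, 0 called, 8 at an unadjusted p under 0.05, 1 by DESeq2) had a median of -0.28, which was -0.18 without cKO replicate 2, and the Sst log2 fold change was -0.67 (FDR 0.0754), or -0.34 without WT replicate 2. Immature granule neuron markers (20 tested) had a median of 0.12, which turned to -0.05 without cKO replicate 1, and Ncam1 was lower (-0.54, FDR 0.0302). The median per library was 0.16 and -0.03 in cKO and lay between -0.19 and 0.15 in WT, so the groups overlapped. Stem and progenitor markers (15 tested, 0 called, 3 at an unadjusted p under 0.05, 1 by DESeq2) had a median of 0.16, which was 0.02 without cKO replicate 2, with Id4 at 0.48 (FDR 0.0803) and Mki67, a marker of dividing cells, at -0.61 (FDR 0.182), which was -0.33 without cKO replicate 1 and -0.96 without cKO replicate 2. Oligodendrocyte markers (19 tested, 0 called, 3 at an unadjusted p under 0.05, 0 by DESeq2) had a median of -0.03, and oligodendrocyte precursor markers (12 tested) one of 0.00, which was -0.26 without cKO replicate 1, with Cspg4 lower (-0.91, FDR 0.0394).

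Microglial and vascular lists moved with single libraries. None of 20 microglial markers passed the FDR (4 at an unadjusted p under 0.05, 1 by DESeq2). Their median was -0.53, but the medians per library were 0.40, -0.14 and -0.26 in WT and -0.17 and -0.65 in cKO, so the groups overlapped, and the list median was -0.26 without cKO replicate 2 and -0.27 without WT replicate 1. P2ry12 and Csf1r, receptors of resting microglia, stood at -0.78 (FDR 0.0638) and -0.62 (FDR 0.18), and the Csf1r log2 fold change was -0.35 without WT replicate 1. Endothelial markers (17 tested, 0 called, 2 at an unadjusted p under 0.05, 0 by DESeq2) had a median of -0.30, which was -0.52 without cKO replicate 1, -0.14 without cKO replicate 2 and -0.02 without WT replicate 1. Meningeal fibroblast markers went the other way: of 13 tested, 2 were called higher and the median was 0.34 (0.69 without WT replicate 2, 0.60 without cKO replicate 1), with summed levels of 86.3, 117 and 108 CPM in WT and 135 and 183 CPM in cKO. The called genes, Igf2 and Ptgds, made up most of these sums, and the other 11 markers summed to 35.4, 39.4 and 35.7 CPM in WT and 37.4 and 43.3 CPM in cKO, where the groups overlapped, with a median of 0.32. Of the choroid plexus list, 11 of 20 genes were tested and 1, Ttr, was called higher, at 3.60, 3.19 and 5.15 CPM in WT and 4.95 and 12.1 CPM in cKO. Its groups overlapped, and without cKO replicate 2 its change was 0.32 (FDR 0.759).

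**Figure D3:**
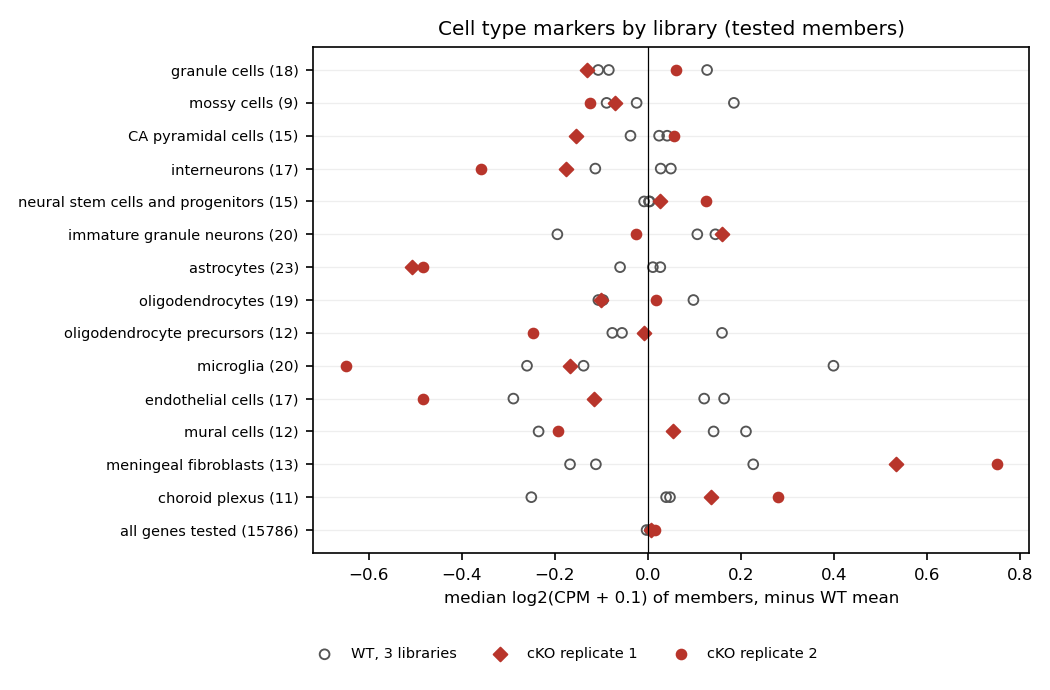
Median over the tested markers of each cell type of log2 CPM minus the WT mean, with 1 point per vDG input library (3 WT, 2 cKO). Astrocyte markers have both cKO points, at -0.51 and -0.48, below the WT points, and meningeal fibroblast markers have theirs, at 0.53 and 0.75, above. Those of interneuron markers (-0.175 and -0.36) also lie below. Those of choroid plexus (0.136 and 0.28) and stem and progenitor markers (0.026 and 0.12) also lie above.

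Matrix and adhesion genes formed a further group of lower genes. Of 32 proteoglycans, hyaluronan link proteins, tenascins and related matrix genes, 10 were lower (31.2%, against 2.33% of all genes) and the median was -0.46, which was -0.54 without cKO replicate 1 and -0.35 without cKO replicate 2. The 10 were Sparcl1, Sparc, Ptprz1, Bcan, Ncan, Gpc5, Spock1, Gpc6, Sdc4 and Cspg4. Sparcl1 and Sparc encode hevin and SPARC, secreted glial proteins known to promote and to oppose synapse formation. Sparcl1 was at 435, 510 and 380 CPM in WT and at 260 and 216 CPM in cKO (-0.89, SE 0.14, FDR 0.00269), and Sparc at 91.4, 92.9 and 103 CPM against 62.6 and 41.5 CPM (-0.88, SE 0.15, FDR 0.00418). Both fell in the 2 cKO libraries, more so in cKO replicate 2. Bcan, the brain lectican of perineuronal nets, was at 24.1, 32.6 and 27.7 CPM against 13.8 and 16.8 CPM (-0.88, FDR 0.00706), and the receptor phosphatase Ptprz1 changed by -0.76 (FDR 0.00595). Of 33 tested collagens and laminins 1 was called, Col12a1 (-0.81, FDR 0.0313), a share of 3.03% near that of all genes.

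Among 60 synaptic adhesion genes, 16 were lower (26.7%, against 2.33% of all genes), 55 had a negative log2 fold change and the median was -0.41. The lowest FDRs were those of Clstn1, a calsyntenin (-0.63, FDR 0.00984), Slitrk4 (-0.63, FDR 0.0165), and the contactins Cntn1 (-0.55, FDR 0.0227) and Cntn2 (-0.82, FDR 0.024). Cntn1 was at 399, 480 and 418 CPM in WT and at 309 and 284 CPM in cKO. With the trend of the fold change on GC content removed (GC trend) 9 were called, and with that on exonic length removed (length trend) 11. Without either cKO library in turn the list median was -0.44 and -0.40. Of 88 cadherins and protocadherins, 83 had a negative value and 9 were lower (10.2%), 7 with either trend removed, with a median of -0.50, the lowest among the adhesion lists. They included Pcdh10 (-0.70, FDR 0.0158) and the X-linked Pcdh19 (-0.56, FDR 0.0256). Of 68 axon guidance ligands and receptors, 5 were lower (7.35%) with a median of -0.34, namely Slit2, Unc5c, Robo1, Epha4 and Neo1, but none was called with the length trend removed (list median -0.25) and 2 with the GC trend removed. Slit2 and its receptor Robo1 changed by -0.67 (FDR 0.0245) and -0.56 (FDR 0.0338).

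Among genes of membrane excitability, pump and channel subunits were called lower. Of 13 tested sodium pump subunits 5 were lower (38.5%, against 2.33% of all genes), and the median was -0.54, which was -0.33 without WT replicate 2. Atp1b1, a beta subunit that brings the pump to the membrane, was at 1339, 1472 and 1444 CPM in WT and at 950 and 978 CPM in cKO (-0.56, FDR 0.0142), and its groups did not overlap. Of 11 sodium channel genes 3 were lower (27.3%): the leak channel Nalcn (-0.64, FDR 0.0208), Scn1a, which carries action potentials in many interneurons (-0.58, FDR 0.0213), and Scn7a (-0.90, FDR 0.0374). With the GC trend removed 0 of the 11 were called, and with the length trend removed 1, while DESeq2 called 4. The list median of -0.39 was -0.30 with the GC and -0.26 with the length trend removed. Of 80 potassium channel genes 3 were lower, a share of 3.75% near the 2.33% of all genes, and the median was -0.16. The third beside Kcnj16 and Kcnj10 was Kcnq5, a subunit of the M current (-0.73, FDR 0.00702). Of 23 voltage-gated calcium channel genes 2 were lower (8.70%, 1 gene with either trend removed), the auxiliary subunits Cacna2d3 (-0.81, FDR 0.00817) and Cacna2d1 (-0.48, FDR 0.0384).

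Receptors for the main transmitters also held lower genes. Of 28 glutamate receptor genes 4 were lower (14.3%, against 2.33% of all genes, and 2 genes with either the GC or the length trend removed) and 26 had a negative value, with a median of -0.39. Gria2, the AMPA receptor subunit that sets calcium permeability, was at 1053, 1083 and 1061 CPM in WT and at 750 and 762 CPM in cKO (-0.50, SE 0.12, FDR 0.0268). Its values were tight in both groups and did not overlap. Grm3, a metabotropic receptor that astrocytes also express, changed by -0.78 (FDR 0.00986), and Gria3 by -0.52 (FDR 0.0382). All 14 tested GABA receptor genes had a negative value, with a median of -0.35, and 2 were lower (14.3%, 1 gene with either trend removed): the GABA-B subunit Gabbr2 (-0.54, FDR 0.0274) and Gabrg1 (-0.76, FDR 0.0302). The list of postsynaptic scaffolds (25 tested), which also holds the SNARE ATPase Nsf, had a median of 0.00 and 3 lower genes (12.0%). They were Cnksr2, Gphn and Nsf, of which 0 were called with the GC trend removed. Of 46 synaptic vesicle genes 5 were lower (10.9%, 2 genes with the GC trend removed) with a median of -0.18, among them the vesicle protein Sv2b, at 395, 448 and 392 CPM in WT and 240 and 251 CPM in cKO (-0.75, FDR 0.00344), and the calcium sensor Syt1 (-0.54, FDR 0.0198). Clathrin, adaptor and coat genes (44 tested) held 5 lower genes (11.4%) with a median of -0.06. The clathrin heavy chain Cltc was at 366, 383 and 359 CPM against 199 and 240 CPM (-0.75, FDR 0.00379). Calcium stores, pumps and kinases (32 tested) held 6 lower genes (18.8%, 3 with the length trend removed) with a median of -0.23, among them the plasma membrane pumps Atp2b1 (-0.60, FDR 0.011) and Atp2b3 (-0.67, FDR 0.00853), the reticulum pump Atp2a2 (-0.58, FDR 0.0142) and the ryanodine receptor Ryr2 (-0.61, FDR 0.0142), which was not called with the length trend removed (-0.37, FDR 0.0895).

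Some granins, peptide processing enzymes and receptors of the neurotrophin and neuropeptide list were called lower. Of 44 tested neurotrophin, neuropeptide and granin genes and their receptors, 7 were lower (15.9%, against 2.33% of all genes) and 1 was higher (against 0.108% of all genes), and the median was -0.39. The 7 were the granins Scg3, Scg2 and Chgb, the processing enzymes Cpe and Pcsk2, and the receptors Ntrk2 and Npy2r. Chgb was at 708, 731 and 517 CPM in WT and at 321 and 421 CPM in cKO (-0.81, SE 0.15, FDR 0.00595). Scg2 was at 125, 145 and 117 CPM against 79.1 and 70.6 CPM (-0.79, SE 0.14, FDR 0.00396). Scg3 was at 132, 155 and 157 CPM against 93.5 and 73.3 CPM (-0.83, SE 0.14, FDR 0.00344). The granins, which pack peptides into dense-core vesicles, thus lay below the WT range in both cKO libraries. Cpe, carboxypeptidase E, changed by -0.71 (FDR 0.00479).

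Since 5-HT4R acts through cAMP, promoters were searched for the cAMP response element TGACGTCA, the palindrome bound by CREB, and for its core TGACG on both strands. The core lies inside the full element. RefSeq promoters (GRCm38.p6, 250 bases before to 50 after the start) were matched by symbol for 11085 of the genes tested. The full element was in the promoter of 8 of 281 lower genes (2.85%) and of 3.44% of all tested genes with a promoter. The core was in 34.2% of the lower genes and in 34.4% of all. Among the 10 higher genes with a promoter, 1 held the full element, Arl5b. Of the 7 lower neurotrophin, neuropeptide and receptor genes 6 had a promoter, and 2 of these held the full element, Chgb and Scg2. They are shown because these granin genes are the members that combine the element with the fall described above. Ap2b1, a subunit of the clathrin adaptor AP2 (-0.59, FDR 0.0128), and Arl5b, a small GTPase of the Golgi (0.62, FDR 0.024), are shown as a lower and a higher gene from other functions. Each line gives 30 bases 5′ to 3′ on the strand of the gene, with the element in capitals.
Chgb, chr2:132781559-132781588, plus strand, element 72 to 65 bases before the start: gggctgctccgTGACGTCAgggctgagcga
Scg2, chr1:79440076-79440105, minus strand, element 68 to 61 bases before the start: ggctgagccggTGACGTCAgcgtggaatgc
Ap2b1, chr11:83302639-83302668, plus strand, element 47 to 40 bases before the start: gcgcacccagaTGACGTCAggcggcgagat
Arl5b, chr2:15055188-15055217, plus strand, element 121 to 114 bases before the start: caggcgcccgcTGACGTCAgcgcgccgacg
A match describes the letters of these windows and not the binding of a factor.

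The cAMP pathway was at the background of calls. Of 50 tested adenylyl cyclases, phosphodiesterases, protein kinase A subunits, Epac and CREB genes, 1 was lower (2.0%, against 2.33% of all genes), the cyclase Adcy2 (55.7, 58.0 and 52.7 CPM against 38.0 and 34.6 CPM, log2 fold change -0.61, FDR 0.017), and the median was -0.04. Of 42 heterotrimeric G protein subunits and RGS genes none passed the FDR (4 at an unadjusted p under 0.05, 0 by DESeq2), and the median was 0.10. Among them Gng4 stood at 0.47 (FDR 0.137) and Gng10 at 0.39 (FDR 0.138). None of 26 immediate early genes passed (2 at an unadjusted p under 0.05, 1 by DESeq2), with a median of -0.02, which was 0.10 without cKO replicate 1 and -0.19 without cKO replicate 2. Bdnf, the neurotrophin induced by activity, was at 82.0, 68.6 and 67.4 CPM in WT and at 52.8 and 65.2 CPM in cKO (-0.30, FDR 0.32, with -0.16 without cKO replicate 1 and -0.46 without cKO replicate 2). The Nr4a2 log2 fold change was -0.67 (FDR 0.0627), and -0.38 without WT replicate 2. Of 19 glucocorticoid receptor genes and targets 1 was called, Mt2, which was higher, and 0 were called with the GC or the length trend removed.

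Chaperones held many lower genes although the list median was near 0. Of 79 genes of the Hsp40 to Hsp110 families and the folding machinery of the endoplasmic reticulum, 15 were lower (19%, against 2.33% of all genes), 48 had a negative value and the median was -0.14, which was -0.08 without cKO replicate 1. Hsp90aa1, the inducible cytosolic Hsp90 on chromosome 12 at 110690605-110702728 of mm10, was at 891, 907 and 728 CPM in WT and at 425 and 495 CPM in cKO (-0.87, SE 0.13, FDR 0.00237). Hspa4, a nucleotide exchange factor of the Hsp110 family, was at 302, 303 and 230 CPM against 125 and 167 CPM (-0.93, SE 0.15, FDR 0.00288). Hspa9, the mitochondrial Hsp70, was at 130, 111 and 109 CPM against 58.0 and 73.3 CPM (-0.83, FDR 0.00357). These genes fell in both cKO libraries and lower in cKO replicate 1. Without that library Hsp90aa1 changed by -0.77 (FDR 0.0921), Hspa4 by -0.74 (FDR 0.159) and Hspa9 by -0.67 (FDR 0.186). Canx, the lectin chaperone calnexin, changed by -0.66 (FDR 0.00656).

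Among genes of protein degradation, none of 43 proteasome subunits passed the FDR (5 at an unadjusted p under 0.05, 0 by DESeq2) and their median was 0.10. Of 79 HECT, cullin and other ubiquitin ligases and USP proteases 7 were lower (8.86%, against 2.33% of all genes), with a median of -0.08. With the length trend removed 4 genes were lower. Ubr4, a large ligase of the N-degron pathway, was at 121, 193 and 149 CPM in WT and at 85.7 and 86.0 CPM in cKO (-0.85, FDR 0.00522). Ubr1 of the same pathway changed by -0.79 (FDR 0.00412). Of 46 lysosomal genes 9 were lower (19.6%) and 41 had a negative value, with a median of -0.38 that was -0.39 without cKO replicate 1. They included Psap, the precursor of saposins (150, 181 and 183 CPM against 118 and 112 CPM, -0.57, FDR 0.0202), the proteases Ctsb (-0.54, FDR 0.0262) and Ctsl (-0.61, FDR 0.0273), and progranulin, Grn (-0.69, FDR 0.0263). An antisense gene overlaps 26.8% of the exonic bases of Ctsl, and counts were made without strand. Of 19 subunits of the vacuolar ATPase that acidifies lysosomes and vesicles 1 was lower (5.26%), Atp6v1a, at 838, 833 and 827 CPM against 439 and 557 CPM (-0.74, FDR 0.00412).

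Lists of lipid and energy metabolism held 2 to 6 lower genes each. Of 39 genes of cholesterol synthesis and transport 6 were lower (15.4%, against 2.33% of all genes, and 3 genes with the length trend removed) with a median of -0.32, among them Apoe and the synthesis enzyme Hmgcs1 (-0.62, FDR 0.0113). Scaling by library size alone left 2 of the 39 called lower, and DESeq2 called 9. Without cKO replicate 1 the list median was -0.35. Of 36 genes of peroxisomes and fatty acid oxidation 4 were lower (11.1%), including Acsl3, which activates long-chain fatty acids (107, 125 and 117 CPM against 65.5 and 64.8 CPM, -0.84, FDR 0.00269), and catalase, Cat (-0.76, FDR 0.0102). Of 17 glycolysis enzymes 2 were lower (11.8%), both phosphofructokinases: Pfkp as above and Pfkm, at 110, 94.4 and 91.6 CPM against 56.7 and 67.0 CPM (-0.68, FDR 0.00901). Of 81 nuclear genes of oxidative phosphorylation 2 were lower, Ndufs1 (-0.59, FDR 0.0213) and Uqcrc1 (-0.60, FDR 0.0269), a share of 2.47% that is near the 2.33% of all genes, while the list median was 0.17 and 0.05 without cKO replicate 1.

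In the nucleus and cytoskeleton the calls were spread over several classes, at shares of 3.70% to 10.5% of a list. Of 57 RNA helicases 6 were lower (10.5%, against 2.33% of all genes) with a median of -0.06, among them Ddx24 (-0.87, FDR 0.00344), Snrnp200 of the spliceosome (-0.76, FDR 0.00515), Dhx9 (-0.67, FDR 0.00973) and the X-linked Ddx3x. Ddx3x was at 215, 220 and 173 CPM in WT and at 115 and 120 CPM in cKO (-0.79, FDR 0.00383). Its Y-linked copy Ddx3y was absent from cKO replicate 1 and stood at 21.8 CPM in cKO replicate 2, where Ddx3x was also low. Of 108 hnRNP, SR and related splicing genes 4 were lower and 1 higher, and the 4 were Hnrnph2, Hnrnph1, Hnrnpu and Prpf6, with changes from -0.79 to -0.55, that of Hnrnpu being -0.36 without cKO replicate 1. Of 106 chromatin remodellers and histone modifiers 4 were lower: Atrx (-0.70, FDR 0.00706), Dnmt1 (-0.67, FDR 0.0142), Chd6 (-0.67, FDR 0.0152) and Nipbl, the loader of cohesin (-0.49, FDR 0.045). The shares of lower genes in these splicing and chromatin lists, 3.70% and 3.77%, were near that of all genes. Of 77 kinesins, dyneins and myosins 7 were lower (9.09%), including Myo6 (-0.79, FDR 0.00522) and Kif1b (-0.58, FDR 0.0169) beside Dync1h1. Of 69 translation factors 3 were lower (4.35%), Eif3a (-0.67, FDR 0.00961), Eif4g1 (-0.64, FDR 0.0117) and Eif4g3 (-0.64, FDR 0.0162). Of 37 aminoacyl tRNA synthetases 3 were lower (8.11%, 1 gene with the GC trend removed), among them Aars, which was at 61.8, 62.7 and 52.5 CPM against 32.6 and 35.5 CPM (-0.79, FDR 0.00496).

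Signalling pathways held few calls, at shares of 0 to 4.65% of a list against 2.33% of all genes. Of 43 Wnt pathway genes 2 were lower, Dkk3 and beta-catenin, Ctnnb1 (-0.51, FDR 0.0394), with a median of -0.07. Of 30 Notch pathway genes 1 was lower, the ligand Dner (26.3, 36.0 and 38.8 CPM against 18.8 and 21.3 CPM, -0.75, FDR 0.0181), and of 40 TGF-beta and BMP genes 1, the receptor Bmpr1b (-0.72, FDR 0.0369), with medians of 0.01 and -0.05. None of 23 FGF ligands and receptors (3 at an unadjusted p under 0.05, 3 by DESeq2) and none of 19 MHC class I and interferon genes (2 and 2) passed the FDR. Of 41 carriers of transmitters and amino acids 5 were lower (12.2%) with a median of -0.25, among them Slc1a2, Slc1a3, Slc6a11 and the serine carrier Slc1a4 (-0.80, FDR 0.00817). Of 69 carriers of ions, glucose and monocarboxylates 2 were lower (2.90%, near the share of all genes), Slc24a3 (-0.51, FDR 0.0285) and Slc4a10 (-0.50, FDR 0.0356), with a median of -0.23 that lay between -0.27 and -0.21 under all 16 alternatives.

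Several further gene classes held no call. All 82 tested ribosomal protein genes had a positive log2 fold change, with a median of 0.20, and none passed the FDR (17 at an unadjusted p under 0.05, 0 by DESeq2). The largest was Rps15, at 116, 145 and 146 CPM in WT and 196 and 167 CPM in cKO (0.42, FDR 0.105). Their median per library was 0.33 in cKO replicate 1 and 0.09 in cKO replicate 2, where WT replicate 3 stood at 0.08, and the list median was 0.07 without cKO replicate 1. Histone genes (43 tested) had a median of 0.27 and tubulins and actins (37 tested) one of 0.13, with no gene called in either by edgeR or DESeq2 and 4 and 10 genes at an unadjusted p under 0.05. Of 344 tested Zfp genes 238 had a positive value, with a median of 0.10 and no call (25 at an unadjusted p under 0.05, 1 by DESeq2). Malat1, an abundant nuclear long noncoding RNA, was at 10184, 12888 and 9950 CPM in WT and at 15034 and 14602 CPM in cKO (0.43, FDR 0.0727).

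**Figure D4:**
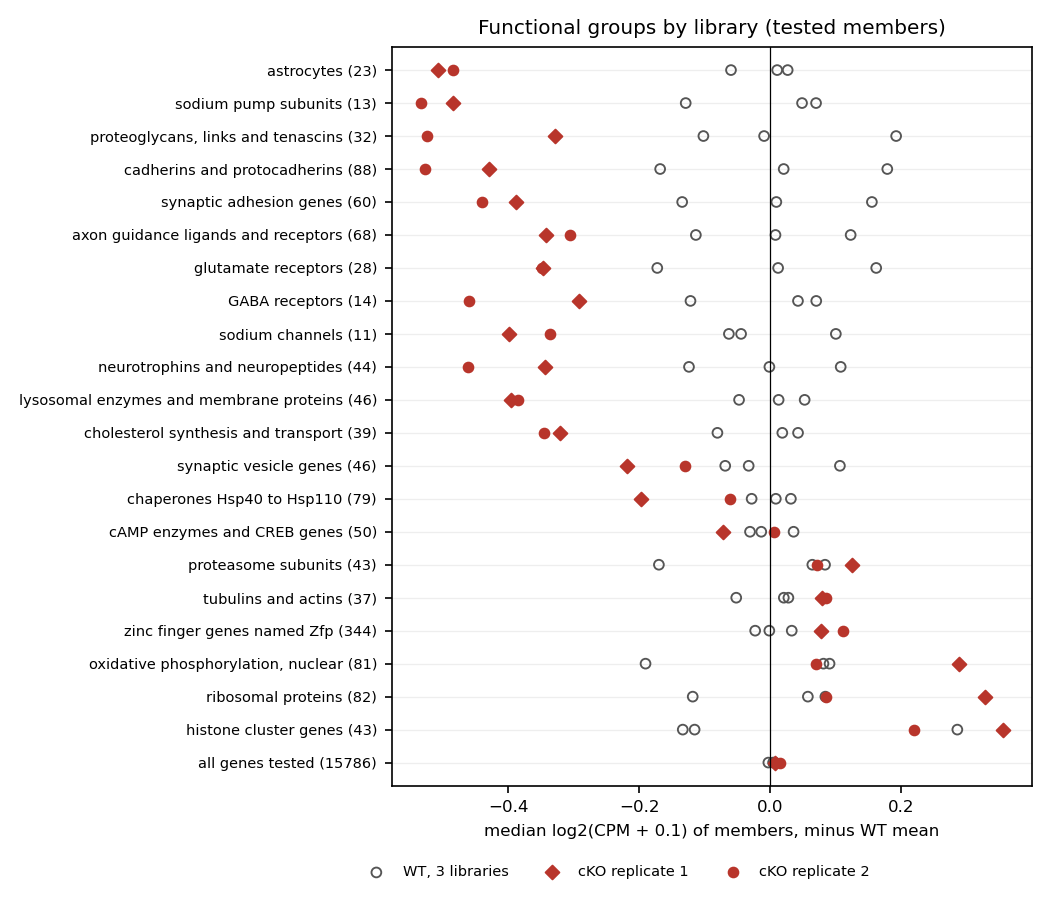
Median over the tested genes of each functional list of log2 CPM minus the WT mean, with 1 point per vDG input library (3 WT, 2 cKO). Sodium pumps, cadherins, synaptic adhesion and lysosomal genes have both cKO points below the WT points, while ribosomal proteins stand at 0.33 and 0.09 in cKO.

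Of the 17 higher genes 6 belonged to a list, and no list held more than 2 of them. The largest gain among genes of at least 5 CPM was that of Igf2, the insulin-like growth factor made by meninges and choroid plexus, on chromosome 7 at 142650766-142666816 of mm10. It was at 11.8, 17.4 and 11.4 CPM in WT and at 22.1 and 36.1 CPM in cKO (log2 fold change 1.10, SE 0.20, FDR 0.00515). Ptgds, the prostaglandin D synthase of meninges, was at 39.0, 59.8 and 61.4 CPM against 75.8 and 103 CPM (0.75, SE 0.17, FDR 0.0169). Both were highest in cKO replicate 2, and they are the 2 called members of the meningeal list described above. Without cKO replicate 2 Igf2 changed by 0.70 (FDR 0.239) and Ptgds by 0.50 (FDR 0.367). Another gene model on the same strand covers 62.8% of the exonic bases of Igf2.

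Rbm3, an X-linked RNA-binding protein known as a cold-induced gene, was at 32.3, 29.8 and 35.2 CPM in WT and at 53.5 and 55.9 CPM in cKO (0.75, SE 0.14, FDR 0.00515). Its replicates were close in both groups, and its change was 0.78 without cKO replicate 1 and 0.72 without cKO replicate 2. Nhlh1, a neuronal transcription factor, was at 4.12, 4.46 and 5.31 CPM against 7.57 and 8.56 CPM (0.80, FDR 0.0448). Mt2, a metallothionein that glucocorticoids and metals induce, was at 81.5, 88.6 and 80.3 CPM against 127 and 107 CPM (0.49, FDR 0.0427, but 0.26 and FDR 0.352 with the length trend removed), and a gene on the other strand overlaps 73.5% of its exonic bases. Mettl2 (0.72), Phf1 (0.68), Smim3 (0.63), Ube2e2 (0.60), Ppp1r14c (0.56) and Trank1 (0.53) were the rest of the 12 with the largest gain, together with Htr4 and Arl5b, and the change of Trank1 was 0.35 without cKO replicate 2. A gene on the other strand overlaps 39.3% of the exonic bases of Phf1.

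Genes at very low counts gave the largest fitted ratios, and those named here were chosen after their values were seen. Gpr141, an orphan receptor, had 17, 14 and 12 counts in WT and 0 and 0 in cKO, which is at least 4.72-fold lower against a floor of 3 counts in each library. It was also at 0 in the other cKO libraries of the series and was counted in all WT libraries. Erv3 had 11, 12 and 15 counts against 1 and 0, and Frem3 20, 11 and 21 against 3 and 0. In the other direction, Tfap2b had 0 counts in all WT vDG inputs and 12 and 13 in cKO (at least 4.21-fold higher against the same floor). Mpzl2 had 1, 1 and 0 counts against 30 and 33, a ratio of 47.9 with a 95% interval from 12.7 to 404 that covers counting error only. In the dDG inputs Mpzl2 had 7, 13 and 7 counts in WT and 14 and 2 in cKO. BC019819 had 15, 16 and 13 counts against 45 and 66. These 3 genes were thus higher in both cKO vDG inputs, and in the dDG inputs the counts of each overlapped between genotypes. Tfap2b and Mpzl2 passed the filter on low counts only through cKO, and Gpr141, Erv3 and Frem3 only through WT. Their entry to the test thus depended on the group where they are high, so their ratios describe them and are no separate support. DESeq2 gave no adjusted p for the 6 genes of this paragraph.

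The lower genes were longer, poorer in GC and more abundant than the genes tested. The median exonic length was 6414 bases for lower genes and 4482 for all. With genes split into 5 equal bins by each property, 4.95% of the longest were lower (142 of 2867), against 0.488% (14 of 2867) of the shortest. Of the bin with the lowest GC content 4.38% were lower, against 1.12% of the highest, and of the bin with the highest CPM 6.94%, against 0.127% of the lowest. The shares of the lists above are set against all genes tested and not against genes of like length or abundance. The median log2 fold change of all genes in a bin went from 0.13 in the shortest to -0.10 in the longest, and from -0.07 at the lowest GC content to 0.09 at the highest. With the trend of the fold change on length removed, 344 genes were lower and 23 higher, of which 308 were among the 385 calls. Of the called genes named above, 26 were no longer called: Cacna2d1, Chd6, Col12a1, Cspg4, Epha4, Frem3, Gabrg1, Gria2, Gria3, Hnrnpu, Kif1b, Map1b, Mt2, Nalcn, Neo1, Nhlh1, Nipbl, Nsf, Ppp1r14c, Ptgds, Robo1, Ryr2, Scn7a, Slit2, Ttr and Unc5c. With the GC trend removed 37 were no longer called, 20 of these and Aqp4, Bmpr1b, Cnksr2, Cntn1, Gjb6, Gpc5, Gpc6, Gphn, Ncam1, Npy2r, Pcdh10, Pcdh19, Phf1, Scn1a, Slc4a10, Smim3 and Syt1. With the length trend removed the 368 lower genes had a median of -0.60, and the astrocyte markers one of -0.54.

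The same genotypes were compared in 2 further sets of libraries, the dDG input and the vDG IP, the RNA on tagged ribosomes of the Cre cells. In the dDG input 4 genes were lower (0.026% of 15383 tested) and 1 was higher (0.0065%), together 0.0325%. The lower genes Apoe and Mfge8 were called there as well, which is 2 of the 4 lower dDG calls and 2 of the 368. The median of the 368 in the dDG was -0.10 (365 tested), where all genes had a median of -0.02. Per the methods the vDG IP was made from the same pooled homogenates as the vDG input, so the comparisons share their tissue and no overlap between their calls is read, although the labels give other numbers of mice for IP and input. In the vDG IP 50 genes were lower and 10 higher at the FDR of 0.1 used for IPs (0.35% and 0.0699% of 14300 tested), and the median of the 368 was -0.49 (367 tested). The IP library of cKO replicate 1 also held 0 counts on the 4 Y-linked genes. For the 17 higher genes the medians were 0.75 in the vDG input, 0.18 in the dDG input (16 tested) and 0.33 in the IP (15 tested).

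By list, astrocyte markers had medians of -0.59 in the vDG input, -0.22 in the dDG input and -0.42 in the vDG IP. Sodium pumps stood at -0.54, -0.13 and -0.12, cadherins and protocadherins at -0.50, -0.17 and -0.24, and lysosomal genes at -0.38, -0.27 and -0.23. Ribosomal proteins stood at 0.20 in the vDG input, -0.42 in the dDG input and 0.05 in the IP. In the same order, the log2 fold change was -0.92, -0.27 and -0.49 for Slc1a2, -1.0, -0.02 and -0.88 for Gprasp1, -1.04, -0.06 and 0.39 for Kcnj16, and 0.86, 0.75 and 0.93 for Htr4. The paper reports astrocyte markers as depleted in the IP. The IP values of astrocyte genes are therefore not values of the Cre cells, and their source was not tested.

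Whether the change differed between regions or fractions was tested gene by gene with interaction terms. In edgeR no gene passed an FDR of 0.05 for genotype by region (16306 tested), where 2010 (12.3%) had an unadjusted p under 0.05, nor for genotype by fraction (16093 tested), where 497 (3.09%) did. With each pool as a block, which pairs the input and the IP of a replicate, 0 genes passed for fraction and 430 had an unadjusted p under 0.05. DESeq2 called 256 genes for region and 0 for fraction. The lowest FDRs for region were those of Hsp90aa1, whose change was lower by 1.19 in the vDG than in the dDG (FDR 0.0997), of the adhesion gene Pvrl3 (nectin 3, lower by 1.21, FDR 0.0997) and of Smc1a (lower by 1.27, FDR 0.0999). For fraction the leading genes were Fam163a, AI450353 and AK044594, each at an FDR near 1. Thus the fall of single genes in the vDG was not shown by edgeR to differ from their change in the dDG.

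**Figure D5:**
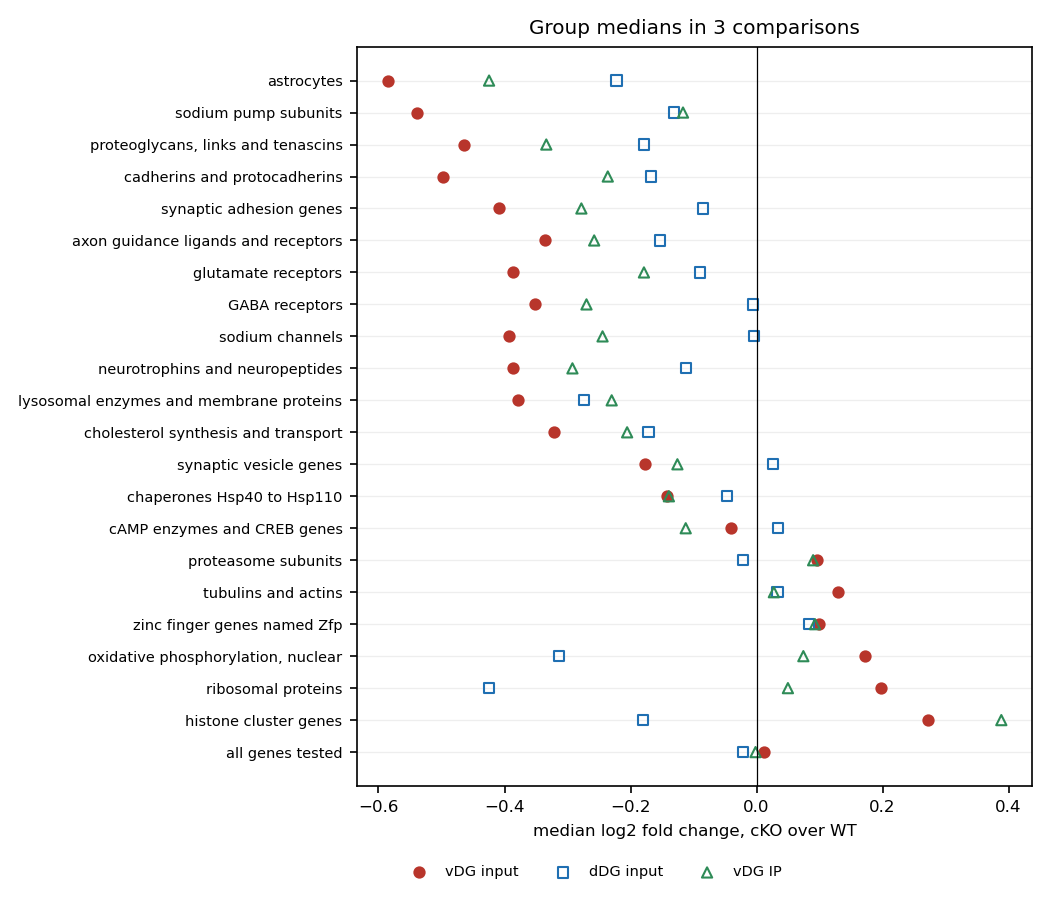
Median log2 fold change of cKO against WT over the genes of each list in the vDG input, the dDG input and the vDG IP, 1 point per comparison, on a log2 scale. Astrocyte markers lie at -0.59, -0.22 and -0.42, and ribosomal proteins at 0.20, -0.42 and 0.05.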

How the data were processed

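Libraries were RNA of whole tissue (input) or of tagged ribosomes (IP), amplified without strand marks and sequenced as pairs. Per the labels and the study's methods, the authors aligned reads to mm10 with STAR 2.4.2a, removed duplicates with SAMtools 0.1.19-444, counted genes with HTSeq in union mode and deposited raw counts. Deposited tables of DESeq2 1.4.5 hold fold changes and p-values of the authors and were not used, except for the deposited percent GC per gene.

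Rows of unassigned reads were left out (no feature 15.6% to 16.3%, ambiguous 6.17% to 8.30%, not unique 9.28% to 11.0% in the vDG inputs). The 3 WT and 2 cKO vDG inputs were tested with the edgeR 4.0.16 quasi-likelihood test (TMM scaling, filterByExpr, Benjamini-Hochberg FDR under 0.05, two-sided), checked on simulated data. An exact permutation test of 3 against 2 cannot go below p = 0.2 and was not used. CPM use TMM-scaled library sizes, and SE were derived from the test. Lists are described by counts and medians without a test; medians by library use log2(CPM + 0.1). DESeq2 1.42.0, R 4.3.3 and Python 3.11.15 were used for alternatives, trends on length (GENCODE M21 exons) and GC, and figures. Promoters of chromosome 18 were not searched.

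Genes and lists were chosen with earlier results of these data known. Named are Htr4, the dissection markers, the 12 called genes per direction with the largest change, the 5 most abundant, up to 4 called members per list (otherwise up to 2 with the lowest p), and the 3 leading genes per interaction; further called members were added after their values were seen. Replicates were separate pools and differed by more than counting noise. Some genes that this rule names are not reported here.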

Additional observations from a re-analysis of the deposited data

How the results depend on the processing

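The excess of lower over higher genes held under every alternative that was run, and the number of calls did not. The counts of higher and lower genes were 34 and 592 with DESeq2 in place of edgeR, 52 and 635 at an FDR of 0.1, 50 and 610 without the filter on low counts, and 6 and 134 with all 15 libraries in one fit. Leaving out each library in turn gave 2 to 51 higher and 4 to 587 lower genes, the lowest without cKO replicate 1 (2 and 4) and then without cKO replicate 2 (5 and 45); the highest came without WT replicate 1 (51 and 587), while 235 and 210 were lower without WT replicates 2 and 3. Such fits without a cKO library rest on a single one, so fewer libraries are part of the loss of calls. Of 144 called genes named above, 137 no longer passed without cKO replicate 1, 126 without cKO replicate 2, 78 with all libraries in one fit, 26 with the length trend removed and 2 with DESeq2, which gave 6 others no adjusted p. No named gene changed sign under any of these except Lct, which was not called and ranged from -0.30 without cKO replicate 2 to 0.40 without cKO replicate 1.

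Replicate numbers are shared between the genotypes, but they gave no sign of pairing, since the deviations of same-numbered libraries correlated at -0.18 and 0.00 over 2 pairs. With the replicate number as a block 46 genes were higher and 364 lower, 301 of them shared with the calls of the fit without it, and the Lct log2 fold change was -0.00686. With the GC trend removed and the block, 45 were higher and the Lct log2 fold change was -0.0247, and with the length trend removed and the block 143 were lower. The causes of these shifts were not tested.

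For genotype by region edgeR gave 0 genes, but 256 were called with DESeq2, 12 at an FDR of 0.1, 362 without the filter, and 0 to 48 when each library was left out. For genotype by fraction 12 were called without the filter. With the pool of mice as a replicate block, pairing input and IP, the count for fraction was 0. The alternatives for these interactions other than DESeq2 and the FDR were chosen after seeing the data. Of genes of 0.198 to 1.80 CPM, the lowest of 5 bins, 0.127% were called lower, and the part of depth in that share was not tested.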
